A study of Mus musculus with 6 samples.

Results

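Splicing regulators of epithelia and transcription factors of the epithelial-mesenchymal transition were examined in mouse embryonic bladders with and without the gene Klf5, a Kruppel-like transcription factor gene active in epithelia. The set held 9 genes, Esrp1, Esrp2, Rbm47, Zeb1, Zeb2, Snai1, Snai2, Twist1 and Twist2, chosen by name, of 19938 genes measured. All 9 were found, each with 1 array feature that carries its symbol alone, so no choice between features was needed. The Klf5-deleted group had a deletion on both Klf5 alleles, and the control group was Klf5+/+ with ShhGfpCre, which expresses a fusion of GFP and Cre recombinase in Shh-expressing cells, among them bladder epithelium. The labels name ShhGfpCre for the controls only; the deletion was taken to have been made with the same allele. Each group had 3 samples, each sample was a pool of 2 bladders taken at E14.5 (embryonic day), and each was read on 1 Affymetrix Mouse Gene 1.0 ST array. The labels call the source urothelium, but the protocol speaks of whole bladders, so muscle, connective tissue, vessels and nerve were taken to be in the RNA.

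Esrp1 and Esrp2 are RNA-binding proteins of epithelial cells that direct the inclusion or skipping of exons in transcripts such as Fgfr2, Cd44, Ctnnd1 and Enah, and Rbm47 is a further RNA-binding protein of epithelia that acts on splicing and transcript stability. Zeb1, Zeb2, Snai1 and Snai2 are zinc-finger repressors that bind E-box sequences in epithelial genes such as Cdh1, which codes for E-cadherin, and Twist1 and Twist2 are basic helix-loop-helix factors. All 6 are known from mesenchyme, and high levels of them in an epithelial cell are linked to loss of epithelial character. The microRNAs of the miR-200 family are known to repress Zeb1 and Zeb2, and Zeb1 and Zeb2 to repress the miR-200 genes.

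The mature miR-200 sequences are shown because their seeds (bases 2 to 8, in capitals, RefSeq, GRCm38.p6) define what the family reads in Zeb1 and Zeb2 transcripts. The seed AACACUG is shared by miR-200a and miR-141, and the seed AAUACUG by miR-200b, miR-200c and miR-429.
miR-200a-3p: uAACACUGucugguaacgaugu
miR-141-3p: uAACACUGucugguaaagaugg
miR-200b-3p: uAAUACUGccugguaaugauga
miR-200c-3p: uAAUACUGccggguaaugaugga
miR-429-3p: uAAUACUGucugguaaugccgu

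The 3 splicing regulators fell in the Klf5-deleted bladders, and none of the 6 Zeb, Snai and Twist factors passed the test in either direction. Values are log2 expression from RMA, the authors' array summary, on which a difference of 1 is 2-fold. Differences are Klf5-deleted minus control, tested with limma, and the threshold is an adjusted p of 0.05 (Benjamini-Hochberg over all genes). Over all 19938 genes 1.98% passed this threshold, 1.59% as falls and 0.386% as rises, and the median difference was -0.0099. Klf5 itself differed by -0.59 (SE 0.10, limma adjusted p = 0.0381). In whole bladders, fewer epithelial cells and less RNA per epithelial cell cannot be told apart.

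**Figure D1:**
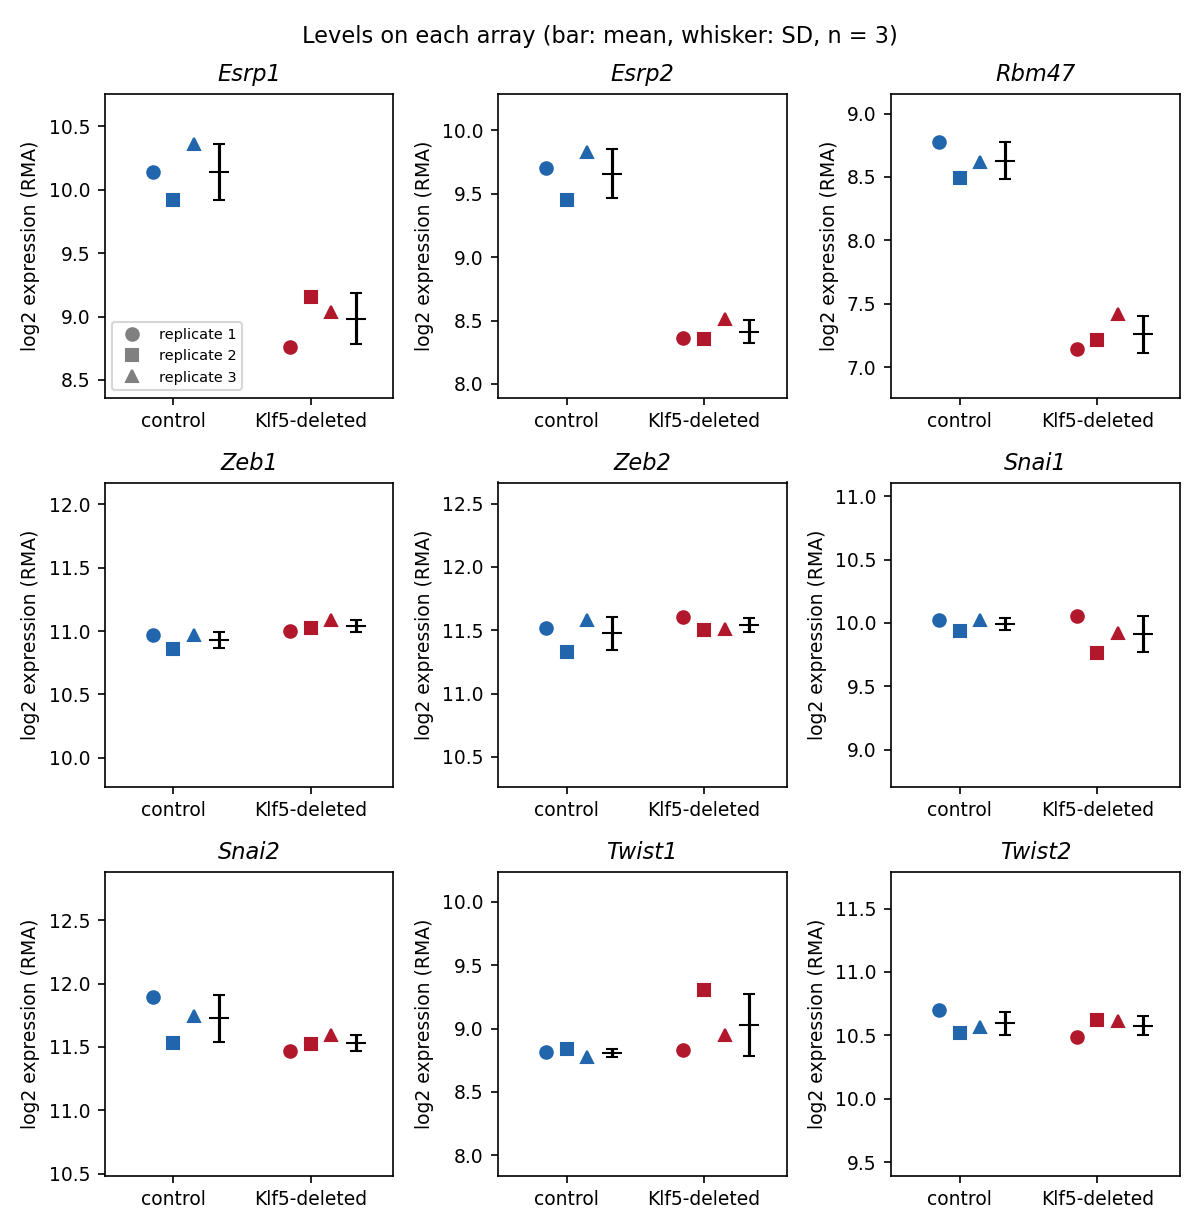
Log2 expression (y axis, RMA values) of each of the 9 genes on the 3 control (blue) and 3 Klf5-deleted (red) arrays, with the marker shape giving the replicate number and the bar and whisker the mean and SD. Every panel spans the same log2 range; the groups stand apart for Esrp1, Esrp2 and Rbm47, and lie close together or overlap for the other genes.

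Rbm47 had the largest difference of the 9 genes. Its log2 level was 7.14, 7.21 and 7.42 on Klf5-deleted arrays 1 to 3 and 8.78, 8.49 and 8.62 on control arrays 1 to 3. Every Klf5-deleted array was lower than every control array, as for 11.8% of all genes. The means were 7.26 ± 0.15 (SD, n = 3) and 8.63 ± 0.14 (SD, n = 3). The difference was -1.37 (SE 0.10, 95% confidence interval -1.61 to -1.13), or 2.59-fold lower, with an adjusted p of 0.00148 by limma. By size it was the 76th largest fall of all genes.

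Esrp2 read 8.36, 8.35 and 8.51 on the Klf5-deleted arrays and 9.70, 9.45 and 9.83 on the control arrays. The groups did not overlap, and the Klf5-deleted arrays lay closer together than the controls. Its means were 8.41 ± 0.09 (SD, n = 3) and 9.66 ± 0.19 (SD, n = 3). It was 2.38-fold lower, a difference of -1.25 (SE 0.11, 95% confidence interval -1.50 to -1.00, adjusted p = 0.00244 by limma).

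Esrp1 read 8.76, 9.15 and 9.04 on the Klf5-deleted arrays and 10.14, 9.92 and 10.36 on the control arrays. The groups again did not overlap, with Klf5-deleted 1 the lowest of all arrays. Its means were 8.98 ± 0.20 (SD, n = 3) and 10.14 ± 0.22 (SD, n = 3), and it was 2.23-fold lower, a difference of -1.16 (SE 0.14, 95% confidence interval -1.48 to -0.83, adjusted p = 0.00882 by limma). Esrp1 had the widest spread of these 3 genes. Leaving out control 1 gave -1.16 and an adjusted p of 0.0502 by limma, just above the threshold; it passed without any other array, with adjusted p of 0.00498 to 0.0388 by limma. Esrp2 and Rbm47 passed in all 6 fits that left out 1 array.

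The 3 falls were not separable in size. A within-array difference of a pair of genes, compared between genotypes, tests whether they changed unequally. The fall of Esrp1 was smaller than that of Rbm47 by 0.21 (95% confidence interval -0.16 to 0.59) and smaller than that of Esrp2 by 0.09 (-0.29 to 0.48). The fall of Esrp2 was smaller than that of Rbm47 by 0.12 (-0.26 to 0.50). The exact two-sided permutation test over arrays gave p of 0.7 for Esrp1 with Esrp2 and 0.3 for each of the other pairs, where 3 arrays against 3 can give no p under 0.1. These limma intervals rest on a spread pooled over all genes, not on the spread of the pair alone, and leave room for a difference in fold between any pair of them.

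Zeb1 read 11.00, 11.03 and 11.09 on the Klf5-deleted arrays and 10.97, 10.85 and 10.97 on the control arrays. Its groups did not overlap, with every Klf5-deleted array slightly higher, but the difference of 0.11 (SE 0.07, 95% confidence interval -0.05 to 0.26) did not pass, with an adjusted p of 0.526 by limma. Over all genes the groups did not overlap for 20.5%, and 8.67% were higher without overlap. The interval for Zeb1 reached at most 1.20-fold higher and 1.03-fold lower.

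Zeb2 read 11.60, 11.51 and 11.51 on the Klf5-deleted and 11.52, 11.33 and 11.58 on the control arrays. The groups overlapped, and only control 2 stood below the other 5 arrays. The difference was 0.06 (SE 0.08, adjusted p = 0.802 by limma), within 1.09-fold lower and 1.19-fold higher, and was -0.01 without control 2.

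Snai1, the classic repressor of E-cadherin, read 10.05, 9.76 and 9.92 on the Klf5-deleted and 10.02, 9.94 and 10.02 on the control arrays. Its highest and its lowest reading both came from Klf5-deleted arrays. The difference was -0.08 (SE 0.09, adjusted p = 0.746 by limma), within 1.21-fold lower and 1.09-fold higher.

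Snai2, a paralog of Snai1 that is also known from neural crest, read 11.47, 11.53 and 11.59 on the Klf5-deleted and 11.90, 11.53 and 11.75 on the control arrays. Controls 1 and 3 lay above every Klf5-deleted array, and control 2 lay among them. The difference was -0.20 (SE 0.10, adjusted p = 0.436 by limma), within 1.34-fold lower and 1.03-fold higher. Without control 2 it was -0.29, with an adjusted p of 0.202 by limma.

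Twist1 read 8.83, 9.30 and 8.95 on the Klf5-deleted and 8.82, 8.84 and 8.78 on the control arrays. The controls lay close together, and Klf5-deleted 2 stood above all other arrays. The difference was 0.22 (SE 0.12, adjusted p = 0.473 by limma), within 1.04-fold lower and 1.41-fold higher, the widest interval of the 6 factors. Without Klf5-deleted 2 it was 0.08.

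Twist2 read 10.49, 10.62 and 10.62 on the Klf5-deleted and 10.70, 10.52 and 10.57 on the control arrays. The groups overlapped throughout. The difference was -0.02 (SE 0.08, adjusted p = 0.944 by limma), within 1.15-fold lower and 1.11-fold higher, and its sign turned to 0.02 and 0.03 when arrays were centred on the median of all genes or on housekeeping genes.

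**Figure D2:**
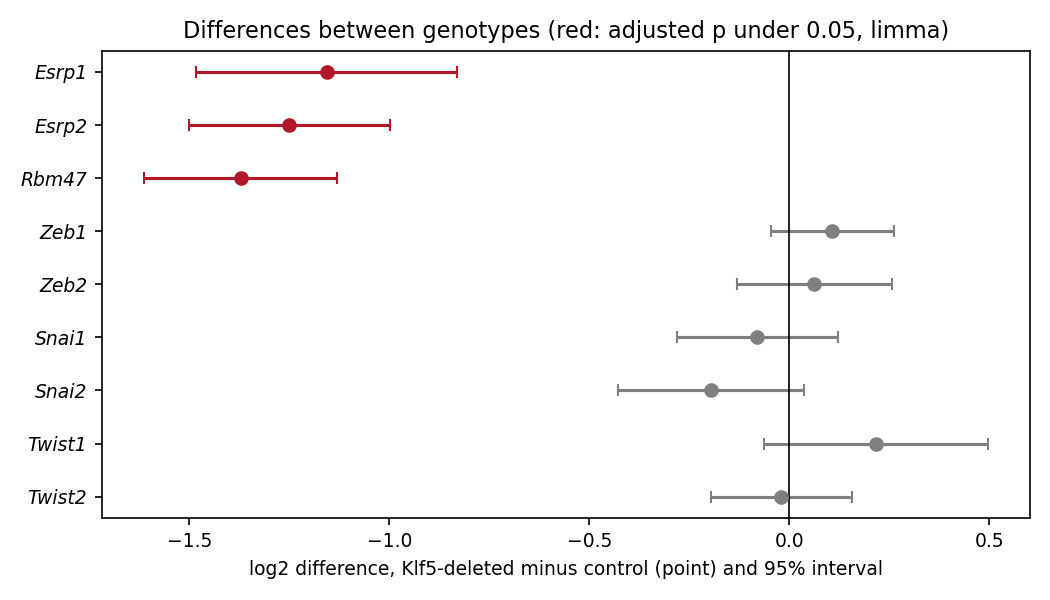
Log2 difference (x axis, Klf5-deleted minus control) of each of the 9 genes with its 95% confidence interval from limma, red where the adjusted p was under 0.05. The intervals of Rbm47, Esrp2 and Esrp1 end at -1.13, -1.00 and -0.83, and those of the 6 factors all include 0.

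Of the 6 factors 3 were higher and 3 lower, with a median difference of 0.021, beside -1.250 for the 3 splicing regulators. None of the 6 passed in limma, and none had an unadjusted p under 0.05, a level that 14.4% of all genes reached. A p that misses the threshold does not show equal levels; the intervals given for each gene are the bound. Which cells of the bladder gave the readings of the 6 factors was not tested.

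Pairs of a splicing regulator with a factor largely restate the differences of the single genes given above. The same genes recur across the pairs, so the pairs are not independent and their count adds no evidence. In all 18 pairs of a splicing regulator with a factor, the within-array difference was lower in the Klf5-deleted group, with differences from -1.59 for Rbm47 against Twist1 to -0.96 for Esrp1 against Snai2. The groups did not overlap in any of the 18. The exact permutation test gave p = 0.1 for each, the smallest it can give with 3 arrays against 3, so it could not pass 0.05. Of the 15 pairs of factors the groups did not overlap in 5, with exact permutation p of 0.1 to 0.7; the furthest apart were Snai2 and Twist1, at -0.41.

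Control 2 was the lowest control array for 8 of the 9 genes, all but Twist1, and was the lowest control for 39.4% of all genes. It also carried the highest reading of Tpbpa, a placental transcript, at 13.13 against 6.18 to 10.34 on the other 5 arrays. The 3 falls were not smaller without this array: Esrp1 then differed by -1.27, Esrp2 by -1.36 and Rbm47 by -1.44.

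Epithelial transcripts as a group were lower alongside the splicing regulators. Of the genes common to most epithelia, 9 were averaged on each array: Epcam, Krt8, Krt18, Krt19, Cldn7, Cldn3, Spint2, Ap1m2 and Elf3. Of these, 6 fell, none rose and 3 did not pass, beside falls of 1.59% of all genes. All 9 were lower, with differences of -1.77 to -0.29. Their mean log2 level was 8.85 to 9.20 on the Klf5-deleted arrays and 9.97 to 10.25 on the controls, a difference of -1.10 (exact permutation p = 0.1, n = 3 per group). Its part in the falls of Esrp1, Esrp2 and Rbm47 was not tested beyond the values that follow.

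Beside this mean, none of the splicing regulators stood apart between genotypes. The change of Esrp1 minus that of the epithelial mean was -0.05 (95% confidence interval -0.45 to 0.34, exact permutation p = 0.6), that of Esrp2 was -0.15 (-0.54 to 0.25, exact permutation p = 0.3) and that of Rbm47 was -0.27 (-0.66 to 0.13, exact permutation p = 0.2). The limma intervals rest on a spread pooled over all genes, the same for each of the 3. The groups overlapped for all 3, and the Klf5-deleted 2 array gave the lowest value for Esrp2 and Rbm47. The values depended on the reference. Beside Epcam alone, a surface protein of epithelia that differed by -0.39 (SE 0.23, limma adjusted p = 0.521), the groups did not overlap and the values were -0.77, -0.86 and -0.98. Beside Cdh1 alone, which fell by 1.50 on the log2 scale (SE 0.19, adjusted p = 0.0103 by limma), they were 0.34, 0.25 and 0.13. There the groups did not overlap for Esrp1, in the opposite direction, and overlapped for Esrp2 and Rbm47.

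Each of the 6 factors was higher beside the epithelial mean, by 0.91 for Snai2 to 1.32 for Twist1, with no overlap between groups and an exact permutation p of 0.1 each. None of the 6 passed on its own scale, and the epithelial mean that was subtracted differed by -1.10. Beside Epcam alone they were 0.19 to 0.60, and the groups stood apart for Twist1 only.

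**Figure D3:**
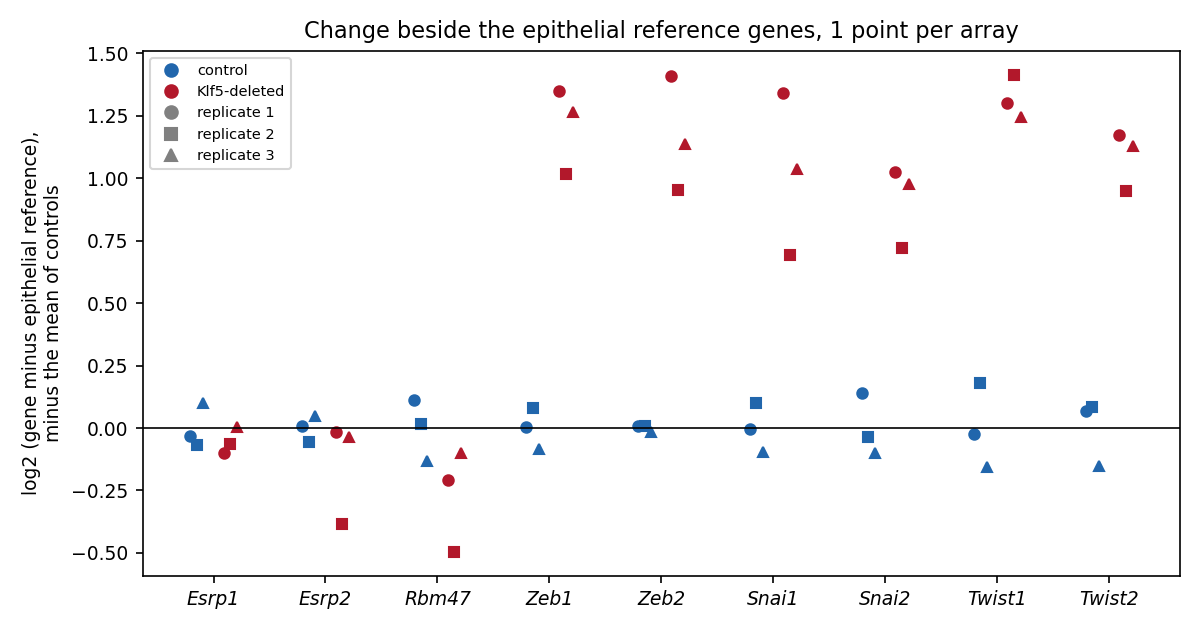
Log2 level of each gene minus the mean of 9 epithelial genes on the same array, set to 0 at the mean of the controls (y axis), with 1 point per array (control blue, Klf5-deleted red, marker shape by replicate). The red and blue points of Esrp1, Esrp2 and Rbm47 overlap, and the red points of the 6 factors lie about 1 unit above the blue ones.

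The genes with profiles most like those of the splicing regulators included several epithelial ones. Likeness was the root mean square difference between 2 genes over the 6 arrays, each gene centred on its own mean, and a gene of the whole table typically lay 0.606 from Esrp1. Nearest to Esrp1 were Bcl2l14 at 0.0633, the clathrin adaptor gene Ap1m2 at 0.0736, Pllp at 0.0820, the tight junction gene Cldn4 at 0.0835 and the protease inhibitor gene Spint2 at 0.0921. Nearest to Esrp2 were Il17re at 0.0807, Dock8 at 0.0897, Paqr5 at 0.0935, Msln at 0.0974 and the protease gene Tmprss13 at 0.0982. Nearest to Rbm47 were Tmprss13 at 0.0728, Esrp2 itself at 0.115, Pof1b at 0.116, Pllp at 0.121 and Dock8 at 0.122. Likeness over 6 arrays in 2 groups mostly reflects a similar fall, and is given as a description.

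Genes that Zeb and Snai factors are known to repress fell in part. Besides Esrp1 and Esrp2, which belong to the list, 33 of these epithelial genes were measured. Of the 33, 14 fell, none rose and 19 did not pass, beside falls of 1.59% of all genes. The median difference was -0.738, beside -0.0099 over all genes. Counted without the test, 29 of the 33 were lower. Spint1 fell by 1.88, the keratin gene Krt8 fell by 1.77, its partner gene Krt18 fell by 1.52, and Rab25, a GTPase of apical trafficking, fell by 1.66. Cdh1 was at 9.17, 9.67 and 9.69 on the Klf5-deleted arrays and 10.98, 10.71 and 11.32 on the controls. Its fall missed the threshold when control 1 was left out. The list was chosen with results of these data known, so its count only describes these samples. Krt8, Krt18, Spint2 and Ap1m2 count among the falls here and in the epithelial mean, so these are not separate groups.

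Transcription factors known to keep epithelial identity fell in part. Of 16 measured, 6 fell, none rose and 10 did not pass, beside falls of 1.59% of all genes. The median was -0.496, beside -0.0099 over all genes. Among the falls was Elf3, which is also in the epithelial mean. The ETS factor genes Ehf and Elf3 fell by 1.87 and 1.60, the grainyhead-like genes Grhl3 and Grhl1 fell by 1.38 and 0.55, Ovol1, which codes for a repressor of Zeb1, fell by 0.75, and Tfap2c fell by 0.67. Only 3 of these factors fell past the threshold without Klf5-deleted 1. Grhl2 and Ovol2, which are known to oppose Zeb1, differed by -0.44 (SE 0.12, limma adjusted p = 0.15) and -0.14 (SE 0.08, limma adjusted p = 0.454).

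The features of the microRNA genes that keep epithelium, those of the miR-200 family and Mir205, did not pass. Mir200a read 7.15, 7.31 and 7.26 on the Klf5-deleted arrays and 7.03, 7.25 and 7.49 on the controls, a difference of -0.02 (SE 0.12). Mir141, which shares its seed, differed by -0.01 (SE 0.08). Mir200b and Mir200c, with the other seed, differed by -0.15 (SE 0.15) and 0.01 (SE 0.12), and Mir205, an epithelial microRNA gene outside the family, by -0.06 (SE 0.14). The adjusted p lay between 0.711 and 0.979 for these 5 by limma, and the groups overlapped for each. The feature of Mir429 is shared with another gene symbol and was not used. These features read the gene's RNA on an expression array, and whether they follow the mature microRNAs printed above was not tested.

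Splicing regulators that are not restricted to epithelia mostly did not pass. Of 37 measured, 1 rose, none fell and 36 did not pass, with a median of 0.074. Counted without the test, 26 were higher, where the median over all genes was -0.0099. An unadjusted limma p under 0.05 was reached by 11, and the groups did not overlap for 16, beside 14.4% and 20.5% of all genes. Nova1, a splicing regulator of neurons, read 8.48, 8.52 and 8.48 on the Klf5-deleted and 7.96, 8.17 and 7.89 on the control arrays, and rose by 0.49 (SE 0.08, adjusted p = 0.0363 by limma). Of the 6 fits that left out an array, it passed in the 1 that lacked control 2. Rbfox2, which promotes exons of mesenchymal cells, read 11.61, 11.66 and 11.63 against 11.49, 11.36 and 11.49; the groups did not overlap, but the difference of 0.19 (SE 0.06) did not pass, with an adjusted p of 0.247 by limma.

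Transcripts with known Esrp-dependent exons mostly did not pass as whole genes. Of 27 measured, 1 fell, none rose and 26 did not pass, with a median of -0.013. Fgfr3, a growth factor receptor of urothelium, fell by 0.74 (SE 0.10, limma adjusted p = 0.0145). It missed the threshold when Klf5-deleted 2 or control 1 was left out. Cd44 read 7.42, 7.33 and 7.67 on the Klf5-deleted and 8.04, 8.30 and 7.76 on the control arrays, a difference of -0.56 (SE 0.15, adjusted p = 0.133 by limma). Fgfr2, Ctnnd1 and Enah differed by -0.16, 0.04 and 0.09, with limma adjusted p of 0.549, 0.874 and 0.584. The deposited values give 1 level per gene, so the exon choices that the Esrp proteins make in these transcripts were not analysed here.

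Other factors of the epithelial-mesenchymal transition moved in 2 cases. Of 26 measured, 2 fell, none rose and 24 did not pass, with a median of 0.031. An unadjusted limma p under 0.05 was reached by 10, and the groups did not overlap for 10, beside 14.4% and 20.5% of all genes. Foxq1, a forkhead factor, fell by 1.20 (SE 0.16, adjusted p = 0.0128 by limma) and Msx2, a homeobox factor, fell by 1.17 (SE 0.09, adjusted p = 0.00196 by limma). Prrx1, a homeobox factor of mesenchyme, differed by 0.36 (SE 0.10, limma adjusted p = 0.164), and the helix-loop-helix partners of the Twist proteins, Tcf3 and Tcf4, by 0.03 and 0.19, with limma adjusted p of 0.901 and 0.373. Of 25 partner and turnover genes of the Zeb and Snai proteins none passed in limma and 1 had an unadjusted p under 0.05, with a median of 0.039; the corepressor genes Ctbp1 and Ctbp2 differed by 0.02 and -0.03. Of 26 TGF-beta and BMP genes, which code for signals that induce the 6 factors in many cells, 1 rose, none fell and 25 did not pass, with a median of 0.071. That gene was Ltbp1, which binds latent TGF-beta; it rose by 0.49 (SE 0.09, adjusted p = 0.0373 by limma). Leaving out any array took it above the threshold.

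Mesenchymal genes did not pass in either direction. None of 30 passed in limma, with a median of -0.075 and differences of -0.63 to 0.49. An unadjusted limma p under 0.05 was reached by 11, and the groups did not overlap for 14, beside 14.4% and 20.5% of all genes. Missing the threshold therefore does not show that these genes were unchanged. Vim, which codes for the intermediate filament of mesenchyme, differed by -0.09 (SE 0.07, limma adjusted p = 0.66). Cdh2, which codes for N-cadherin, differed by 0.25 (SE 0.09, limma adjusted p = 0.29). Every Klf5-deleted array was above every control for Cdh2, as for 8.67% of all genes.

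**Figure D4:**
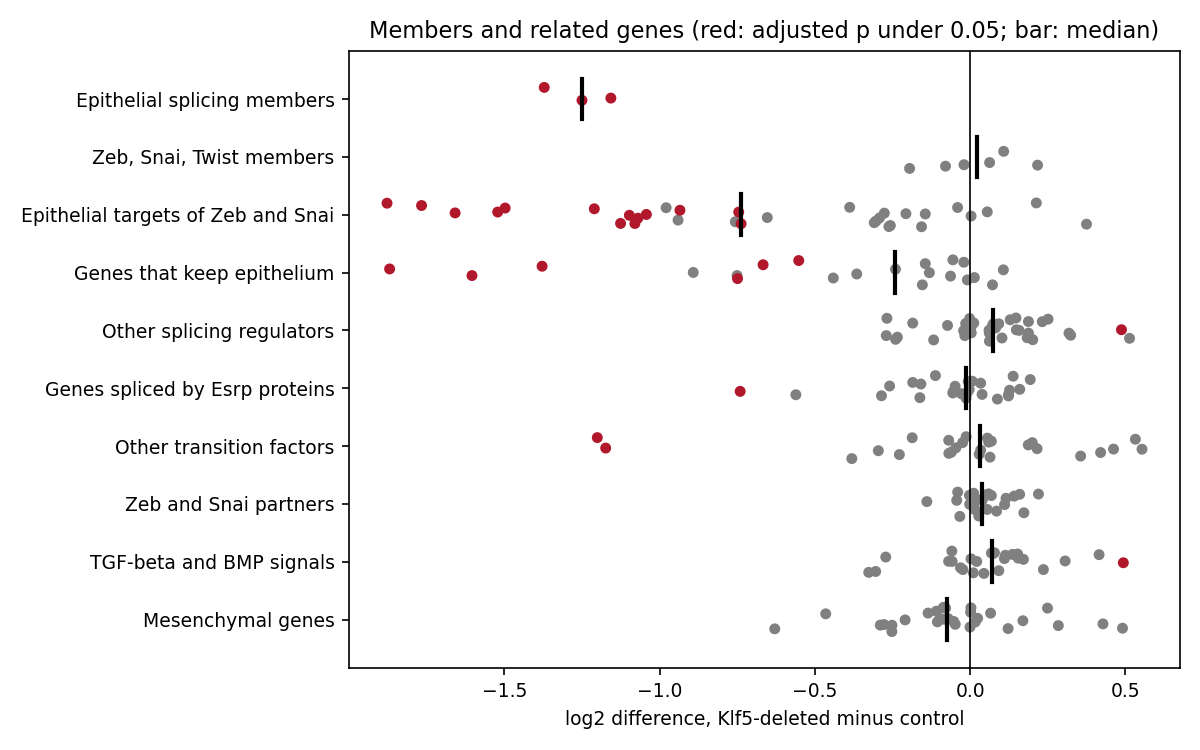
Log2 difference of each gene (x axis, Klf5-deleted minus control) in the 2 kinds of member and in 8 lists of related genes without the members, red where the adjusted p was under 0.05 by limma, with a bar at the list's median. Falls past the threshold lie mainly among the 3 splicing regulators, the epithelial targets of Zeb and Snai and the genes that keep epithelium (16 factor genes and 5 microRNA genes), and the 6 Zeb, Snai and Twist factors lie around 0.

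Markers of the other cell types of the bladder were read on the same arrays. The 8 urothelial markers had a mean log2 level of 9.21 to 9.43 on the Klf5-deleted and 11.01 to 11.12 on the control arrays. Of them 6 fell, Upk1a, Upk1b, Upk2, Upk3a, Krt8 and Krt18, and 2 did not pass, Krt5 and Trp63. The differences ran from -3.19 to -0.096, so the markers did not fall evenly. Krt8 and Krt18 are also in the epithelial mean. None of 8 mesenchymal, 7 smooth muscle, 6 endothelial, 6 leukocyte and 5 neuronal and glial markers passed in limma. In that order, 2, 5, 2, 0 and 1 of them had an unadjusted limma p under 0.05, beside 14.4% of all genes. The groups did not overlap for 2, 6, 2, 0 and 1 of them, beside 20.5% of all genes. The mesenchymal markers had a mean level of 12.68 to 12.84 on the Klf5-deleted and 12.80 to 12.92 on the control arrays, so the groups overlapped. All 7 smooth muscle markers were lower, with a median of -0.311, and their mean level was 12.15 to 12.42 on the Klf5-deleted and 12.41 to 12.75 on the control arrays. All 5 skeletal muscle markers were higher, with a median of 0.698; none passed in limma, 3 had an unadjusted p under 0.05, and their mean level of 9.29 to 10.31 on the Klf5-deleted arrays overlapped that of 8.61 to 9.57 on the controls. Of 4 mesothelial markers 1 fell, 1 rose and 2 did not pass. Msln, which codes for mesothelin and was among the genes most like Esrp2, fell by 1.42 (SE 0.10, adjusted p = 0.00140 by limma), and Wt1, a zinc-finger factor gene, rose by 0.54 (SE 0.10, adjusted p = 0.0409 by limma). Wt1 missed the threshold with the replicate block, and of the 6 fits that left out an array it passed in the 1 that lacked control 2. None of 3 erythroid and 3 placental and decidual markers passed in limma or had an unadjusted p under 0.05, with medians of 0.254 and -0.833. The part of these cells in the readings of the 9 genes was not tested.

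RefSeq promoter windows were available for 5 of the 9 genes, 10 windows in all, of which those of Rbm47 and Snai1 are shown, as a splicing regulator that fell and a factor that did not pass. Capitals mark matches, on either strand, to CACCTG, the E-box form that Zeb and Snai factors bind, to CCNCNCCC, a core of the sites read by Kruppel-like factors, or to AACNGGTT, a site of grainyhead-like factors. Each run holds the 250 bases before a start site (GRCm38.p6, 5′ to 3′ along the gene). Rbm47 has 3 windows, and those at chr5:66151955-66152204 and chr5:66150979-66151228 (minus strand) come first and second here; that of Snai1 lies at chr2:167537945-167538194 (plus strand).
Rbm47 window 1: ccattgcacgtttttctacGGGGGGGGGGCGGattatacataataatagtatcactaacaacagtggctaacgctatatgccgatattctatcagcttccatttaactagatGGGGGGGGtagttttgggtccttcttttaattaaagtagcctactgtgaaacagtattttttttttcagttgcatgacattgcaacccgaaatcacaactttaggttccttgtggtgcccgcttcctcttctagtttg
Rbm47 window 2: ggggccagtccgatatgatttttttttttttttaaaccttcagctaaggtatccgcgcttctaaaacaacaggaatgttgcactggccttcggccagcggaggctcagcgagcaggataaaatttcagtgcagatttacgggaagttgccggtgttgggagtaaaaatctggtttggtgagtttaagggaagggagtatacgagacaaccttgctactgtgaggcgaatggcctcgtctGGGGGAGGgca
Snai1: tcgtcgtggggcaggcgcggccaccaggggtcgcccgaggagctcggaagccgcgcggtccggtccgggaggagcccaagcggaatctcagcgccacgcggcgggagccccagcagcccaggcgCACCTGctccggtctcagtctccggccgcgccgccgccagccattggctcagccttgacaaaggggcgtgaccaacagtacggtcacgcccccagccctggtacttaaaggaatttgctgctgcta

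The capitals in both Rbm47 windows are matches to CCNCNCCC, 5 in window 1, of which 4 overlap in the first run of capitals and 1 makes up the second, and 1 in window 2, and the third Rbm47 window held none. CCNCNCCC was found in 8 of the 10 windows and in 45.9% of all 32851 promoter windows of the same length. Apart from Rbm47, these windows belonged to factors that did not pass. Twist2 had 13 matches, Twist1 had 5, and the Zeb2 windows had 1, 18, 18 and 5. Many of these matches overlap within runs of G. Snai1 was the only factor with a window and no match, so the Snai1 window shown is not typical of the factors. Over all 10 windows, CCNCNCCC did not set the gene that fell apart from the factors. CACCTG was found in 1 of the 10, that of Snai1, and in 17.2% of all. The general E-box CANNTG, which takes in CACCTG, was found in 3 of the 10 and in 66.2% of all, and AACNGGTT in none of the 10 and in 1.79% of all. Zeb2 held 4 of the 10 windows, a pair of them overlapping, so the windows are not independent. A match describes letters and not binding.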

How the data were processed

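RNA of 6 pools of embryonic bladders was read on 1 array each. The deposited values are log2 expression made by the authors with RMA (background correction, quantile normalization and probe summary), per the submitters' processing notes. The log2 scale was inferred from the range of the values. The version of RMA and the genome build were not given in the sources used here. RMA is known to compress differences of dim features, and no call of presence could be made. The number of arrays limits the precision. Of 35557 features 21789 had a single symbol; the feature with the highest mean stood for a gene, which left 19938 genes. Genotypes were compared with limma 3.58.1 in R 4.3.3 (lmFit, eBayes without trend, two-sided, Benjamini-Hochberg over all genes). These p-values reflect variation among pools, which the labels do not tie to litters. The fit was tested on simulated data. The members and lists were chosen with earlier results of these data known, and the tests of pairs of members were added after values were seen. Named were the members, Klf5, the largest changes past the threshold per list and 17 preset genes. Mir200a, Mir200b, Mir200c, Mir141, Mir205, Tpbpa, Krt5 and Trp63 were named outside this rule. Alternatives were the replicate block, eBayes with trend or robust, 2 centrings, array weights, feature means, a filter on dim genes, adjustment over all features, and leaving out each array.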

Additional observations from a re-analysis of the deposited data

How the results depend on the processing

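Over 15 alternatives Esrp2, Rbm47 and, with 2 exceptions, Esrp1 fell, and no member rose. Zeb1, Snai1, Snai2 and Twist1 kept their sign in all 15 and passed in none. The labels do not tie same-numbered arrays, and their deviations from the group means correlated at 0.00915, 0.0313 and 0.0787. The best-matching control was control 2 for Klf5-deleted 1 and 2, and control 3 for Klf5-deleted 3. With 3 arrays per group these values cannot settle whether the numbers pair the samples. With the replicate block Esrp1 differed by -1.16 with an adjusted p of 0.0561 by limma, 110 genes passed in place of 395, and the falls numbered 0 among genes spliced by Esrp proteins, 1 among other transition factors and 2 among genes that keep epithelium, with 0 rises among splicing regulators and TGF-beta and BMP genes. Adjusted over all features, 180 genes passed and those 2 counts of rises were also 0. Among other transition factors 1 gene, Foxc2, rose with robust eBayes, with either centring and with a filter on dim genes. Twist2 turned to 0.020 and 0.031 with arrays centred on the median or on housekeeping genes.

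Leaving out 1 array gave 141 to 349 genes past the threshold. Esrp1 then differed by -1.27 to -1.04, and missed the threshold without control 1 (-1.16). Zeb2 differed by -0.011 to 0.115, the lowest without control 2. Twist2 differed by -0.057 without control 2 to 0.031 without control 1, and was also above 0 without Klf5-deleted 1, at 0.024. Of 35 epithelial targets of Zeb and Snai, Esrp1 and Esrp2 among them, 16 fell in the main fit and 11 with the replicate block. Leaving out 1 array gave 12 to 16 falls in that list, the fewest without control 1. The falls numbered 3 to 8 among genes that keep epithelium, 0 to 1 among genes spliced by Esrp proteins and 1 to 2 among other transition factors, where 1 fell without Klf5-deleted 1 or control 1; the rises numbered 0 to 1 among splicing regulators and other transition factors and 0 to 0 among TGF-beta and BMP genes.

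Beside Epcam alone in place of the epithelial mean, Esrp1, Esrp2 and Rbm47 changed by -0.77, -0.86 and -0.98, Zeb1 and Zeb2 by 0.50 and 0.45, Snai1 and Snai2 by 0.31 and 0.19, and Twist1 and Twist2 by 0.60 and 0.37. Beside Cdh1 alone the values were 0.34, 0.25 and 0.13 for the splicing regulators, 1.61 and 1.56 for Zeb1 and Zeb2, 1.42 and 1.30 for Snai1 and Snai2, and 1.71 and 1.48 for Twist1 and Twist2. The causes of these changes were not tested. Without scanner files no feature could be set against its background, which limits what is known of dim features such as those of the miR-200 genes.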
